A study of Homo sapiens with 6 samples.

Results

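The heat shock proteins and chaperonins were followed by 45 gene symbols, out of 53719 rows in the deposited gene table. The members were chosen by family and function: heat shock factors, the HSP70, HSP90 and small heat shock families, chaperonins, J proteins, BAG proteins, HSP90 co-chaperones, the cytosolic chaperonin TRiC and prefoldin. Earlier results of these data were known when the members were chosen. All 45 symbols had a row, and 44 passed the filter on low counts and were among the 19721 genes tested. HSPE1 was listed at 0 in every library and was not tested. For comparison, members were also sorted by textbook behaviour into 10 stress-inducible genes, 29 constitutive genes and 6 in neither class.

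The cells were H9, an established human embryonic stem cell line, grown in RSeT, a commercial medium for a naive-like pluripotent state. All 6 libraries came from cells transfected with a gapmer, a short antisense oligonucleotide with a DNA centre that directs RNase H to the paired RNA. The knockdown group of 3 libraries (titled Sense3 and labelled ALR Knockdown) received a gapmer against ALR, the alpha satellite RNA of centromeric repeats. The control group of 3 libraries received a control gapmer, and RNA from both groups was taken 48 h after transfection. No untransfected cells enter the comparison, so a response common to both gapmers is not seen in it. Within a group the libraries carry the letters a, b and c. The labels do not say whether these are separate cultures, so p-values measure only the spread between these libraries, which may be technical. Alpha satellite RNA was not analysed here, so the knockdown itself was not checked.

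Chaperones bind unfolded or partly folded proteins and let them fold, move or be handed on for degradation. HSP70 works with J proteins that bring substrates to it and with nucleotide exchange factors that release them, HSP90 finishes signalling proteins such as kinases, and TRiC closes around actin, tubulin and other substrates in its ring. Under proteotoxic stress the transcription factor HSF1 is released from chaperones and binds heat shock elements, repeats of an inverted nGAAn unit, in the promoters of inducible members. Pluripotent stem cells are known for high basal levels of several of these proteins.

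The depth of the libraries was 25087629 to 36576752 counts, and 99.9% of the counts lay in tested genes. Levels are given as CPM, the usual depth-scaled counts, computed with TMM-scaled library sizes. Knockdown a held counts in 29678 rows against 25898 to 26788 in the other libraries. Of the pluripotency markers, POU5F1 stood at 133 ± 16.9 CPM in the knockdown and 99.8 ± 13.3 CPM in the control (SD, n = 3; edgeR adjusted p = 0.0948), and NANOG at 194 ± 12.4 and 181 ± 5.21 CPM. POU5F1 was called by DESeq2, by edgeR without the filter on low counts and by edgeR without knockdown c. Of the 6 tested pluripotency markers 5 were above 0 and 1, DPPA4, below, with a median log2 fold change of 0.053. The naive markers KLF17 (0.171 ± 0.163 and 0.0766 ± 0.0427 CPM) and DPPA5 (1.12 ± 0.123 and 0.999 ± 0.210 CPM) were near 0. Of the 8 naive markers, 4 had group means of 17.3 to 58.1 CPM and the other 4 were under 3 CPM. Of the 7 tested naive markers 4 were above 0 and 3 below, with log2 fold changes from -0.72 to 0.17 and a median of 0.086. Among them 1, DNMT3L, had an unadjusted p under 0.05 in edgeR (14.3%, as over all tested genes), with an edgeR adjusted p of 0.258. Of the 7 primed markers, 5 had group means of 9.10 to 116 CPM, and the 7 trophectoderm markers were all under 1 CPM. The naive label was thus matched by only some of its markers. SOX2, chosen for mention after its values were seen, was listed at 0 in every library, which gives no level for it. In bulk RNA, fewer cells of a type and less RNA per cell cannot be told apart.

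Promoter stretches of inducible members are shown first because heat shock elements are where HSF1 is known to bind. RefSeq promoter windows (250 bases before to 50 after a start, assembly GRCh38.p14) were matched for 40 of the 45 members. The core of the heat shock element was searched as GAANNTTC or TTCNNGAA, on both strands, each being its own reverse complement. These stretches are printed 5′ to 3′ on the gene's strand, with the matches in capitals. The runs of HSPA1A (chr6:31815293-31815463, plus strand), HSPA1B (chr6:31827488-31827734, plus strand) and DNAJB1 (chr19:14518421-14518647, minus strand) lie in upstream sequence free of GENCODE 29 exons. For the constitutive HSPA8 (chr11:123062352-123062368, minus strand) and for HSP90AA1 (chr14:102087118-102087134, minus strand) only the sites are shown, where 2 cores overlap in each. Stretches without a match are not printed: of the 2 windows of HSP90AA1, 1 held the core, and of the 3 windows of DNAJB1, 2 did.
HSPA1A: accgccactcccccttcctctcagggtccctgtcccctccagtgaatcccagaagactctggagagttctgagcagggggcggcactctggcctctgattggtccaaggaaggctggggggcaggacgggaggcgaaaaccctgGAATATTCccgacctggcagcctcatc
HSPA1B: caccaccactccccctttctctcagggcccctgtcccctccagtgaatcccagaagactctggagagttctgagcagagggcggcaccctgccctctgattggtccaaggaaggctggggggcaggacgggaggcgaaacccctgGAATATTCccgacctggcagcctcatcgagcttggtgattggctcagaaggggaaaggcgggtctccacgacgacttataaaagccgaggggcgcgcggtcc
DNAJB1: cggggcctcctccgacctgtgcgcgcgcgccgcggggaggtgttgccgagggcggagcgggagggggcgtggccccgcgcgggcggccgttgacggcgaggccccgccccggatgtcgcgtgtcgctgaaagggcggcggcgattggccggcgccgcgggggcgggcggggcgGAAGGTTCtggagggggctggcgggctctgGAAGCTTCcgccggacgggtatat
HSPA8 site: ttGAAAGTTCCAGAAcg
HSP90AA1 site: tcTTCCGGAAGGTTCgg

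The core occurred in 9 of 14 windows of stress-inducible members (64.3%), in 10 of 34 windows of constitutive members (29.4%) and in 4737 of all 35116 windows (13.5%). Among inducible members with a window, 8 of 10 genes had it, and HSPH1 and BAG3 did not. Counted by gene in the same way, 10 of 26 constitutive members and 4417 of all 27305 genes with a window had the core. The CCAAT box (CCAAT or ATTGG) was found in 34.5% of the members' windows and in 34.6% of all windows. A TATA box (TATAAA or TTTATA) was found in 12.7% and 11.5%. In windows of inducible, constitutive and neither-class members, the CCAAT box was found in 42.9%, 23.5% and 71.4%. The TATA box was found in 14.3%, 5.88% and 42.9% of them, with only 7 windows in the neither class. A match is a description of letters, not a measured binding site. The 250 bases upstream of HSPA1A and HSPA1B were 93.6% identical, and 72.6% of the 50-base words in the HSPA1A transcript also occurred in that of HSPA1B. How the authors' counting split reads between these 2 copies is not given in the sources used here, so their separate values are uncertain. Of the exon bases of HSPA1B, 36.5% also overlap the same-strand gene AL671762.1.

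Of the 44 tested members, 1 rose in the ALR knockdown and 0 fell (edgeR's quasi-likelihood test, Benjamini-Hochberg adjusted p under 0.05 over all tested genes). The gene that rose was HSPA2, an HSP70 known best from the testis. Over all tested genes 0.786% passed in either direction, 0.137% higher and 0.649% lower. At an unadjusted p under 0.05, 3 members (6.82%) passed against 14.3% of all genes, namely HSPA2, HSPA4L and CDC37. The groups did not overlap for 4 members (9.09%) against 18.9% of all genes: those 3 and the J protein DNAJB6, which is named after its values were seen. DESeq2 and limma-voom also called HSPA2 alone among the members. The log2 fold changes of the members ran from -0.34 to 0.55 with a median of 0.045, beside 0.0195 over all tested genes, and their median standard error was 0.0789. The sign was positive for 30 members and negative for 14. Among all 19721 tested genes, 10736 were above 0 and 8985 below. When the trend of fold change with gene span was removed, an alternative chosen after seeing the data, the members' median was 0.0019 and 22 of 44 were above 0.

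**Figure D1:**
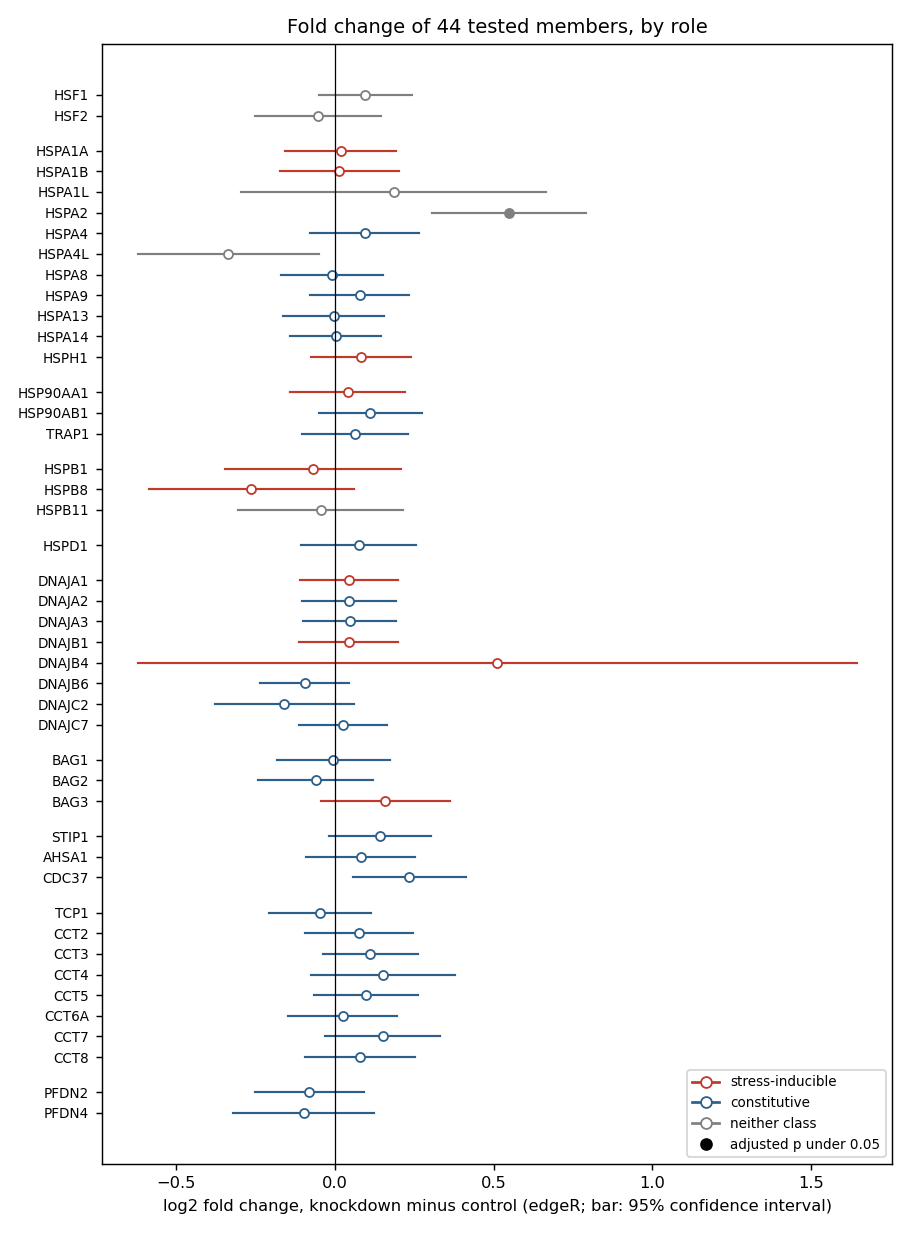
Log2 fold change of each tested member (horizontal axis, knockdown minus control, edgeR) with its 95% confidence interval, ordered by role from heat shock factors to prefoldin. Colours mark the stress class and a filled point marks an adjusted p under 0.05, which HSPA2 alone reached, while DNAJB4 has the widest interval.

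The stress-inducible class held no member that passed the test. All 10 were tested, with 0 called by edgeR, 0 at an unadjusted p under 0.05, 0 called by DESeq2 or limma-voom, and a smallest adjusted p of 0.452 in edgeR. Their median log2 fold change was 0.0425, with 8 above 0 and 2 below. It was -0.0094 with the gene span trend removed and -0.018 without knockdown b, with 4 of 10 above 0 in each case. A broader inducible class also took in HSPA8, HSPD1, STIP1, AHSA1, HSPA4L and the untested HSPE1. Its 15 tested genes had a median of 0.044, and HSPA4L among them had an unadjusted p under 0.05, with a log2 fold change of -0.34. The constitutive class had 28 tested members with 0 called by edgeR, DESeq2 or limma-voom, 1 at an unadjusted p under 0.05 (CDC37) and a median of 0.0551. Of its members, 19 were above 0 and 9 below.

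The inducible HSP70 pair is the classical readout of HSF1 activity. HSPA1A stood at 58.1, 66.9 and 57.8 CPM in knockdown a, b and c, the order used throughout. Its control libraries a, b and c stood at 65.1, 58.7 and 56.9 CPM. HSPA1B stood at 65.2, 77.3 and 64.5 CPM in the knockdown and at 74.7, 64.7 and 65.9 CPM in the control. In both copies knockdown b and control a were high, and the groups overlapped throughout. The log2 fold change was 0.018 ± 0.080 (SE) for HSPA1A, with a 95% interval from -0.16 to 0.19 and an edgeR adjusted p of 0.943. For HSPA1B it was 0.014 ± 0.086 (SE), from -0.17 to 0.20 (edgeR adjusted p = 0.96). These intervals leave out a rise of 0.5 on the log2 scale.

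DNAJB1, the inducible J protein that delivers substrates to HSP70 and feeds back on HSF1, stood at 46.04, 50.8 and 44.2 CPM in the knockdown and at 46.9, 45.0 and 45.0 CPM in the control. Knockdown b was the highest library and knockdown c the lowest, with all controls between them. The log2 fold change was 0.044 ± 0.071 (SE), with an interval from -0.11 to 0.20 and an edgeR adjusted p of 0.828. BAG3, an inducible nucleotide exchange factor of HSP70 in selective autophagy, stood at 16.004, 19.1 and 19.2 CPM in the knockdown and at 16.3, 15.8 and 16.5 CPM in the control. Knockdown b and c lay above every control, while knockdown a lay within the control range. Its log2 fold change was 0.16 ± 0.094 (SE; by edgeR, adjusted p = 0.473).

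Of the regulators, HSF1 stood at 68.0, 76.4 and 70.1 CPM in the knockdown and at 69.55, 65.6 and 65.7 CPM in the control. Its groups overlapped through knockdown a, and the log2 fold change was 0.096 ± 0.068 (SE; by edgeR, adjusted p = 0.556). The related factor HSF2 was at 19.4 ± 1.64 and 20.1 ± 1.31 CPM (SD, n = 3), with a log2 fold change of -0.054. Neither value speaks to the activity of the proteins, which is set after transcription.

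In the HSP70 and HSP110 family, 8 of 11 members were above 0 and the median log2 fold change was 0.018. HSPA2 was the member that passed the test. It stood at 14.9, 17.3 and 14.7 CPM in the knockdown, from 422, 577 and 371 counts. In the control it stood at 11.6, 9.44 and 11.01 CPM, from 331, 293 and 400 counts. Every knockdown library lay above every control library. HSPA2 rose by 0.55 ± 0.11 (SE) on the log2 scale, with an interval from 0.31 to 0.79 and an edgeR adjusted p of 0.0441. Its call was lost without knockdown a (adjusted p = 0.0559), knockdown b (0.181), control a (0.119), control b (0.234) or control c (0.221), with log2 fold changes of 0.46 to 0.62 throughout. The gene lies at chr14:64535905-64546173 on the plus strand (GENCODE 29, GRCh38), and none of its exon bases overlap another GENCODE gene. RefSeq places the antisense gene HSPA2-AS1 across part of its span, and the strand setting of the counting is not given in the sources used here. HSPA2 shares 0% of its 50-base words with HSPA1A or HSPA8, and its promoter window held no heat shock element core.

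HSPA4L, an HSP110-type exchange factor first described in the testis, had the lowest fold change among the members. It stood at 10.9, 10.3 and 7.91 CPM in the knockdown and at 11.3, 11.9 and 13.6 CPM in the control. The groups did not overlap, although knockdown a and control a lay close together. The log2 fold change was -0.34 ± 0.13 (SE), which did not pass after adjustment (edgeR adjusted p = 0.275). HSPA8, the constitutive cytosolic HSP70 of protein folding and clathrin uncoating, was among the most abundant members. It stood at 1972, 2029 and 1732 CPM in the knockdown and at 1922, 1967 and 1887 CPM in the control. Knockdown c was the lowest library and the groups overlapped, with a log2 fold change of -0.011 ± 0.074 (SE; by edgeR, adjusted p = 0.966).

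**Figure D2:**
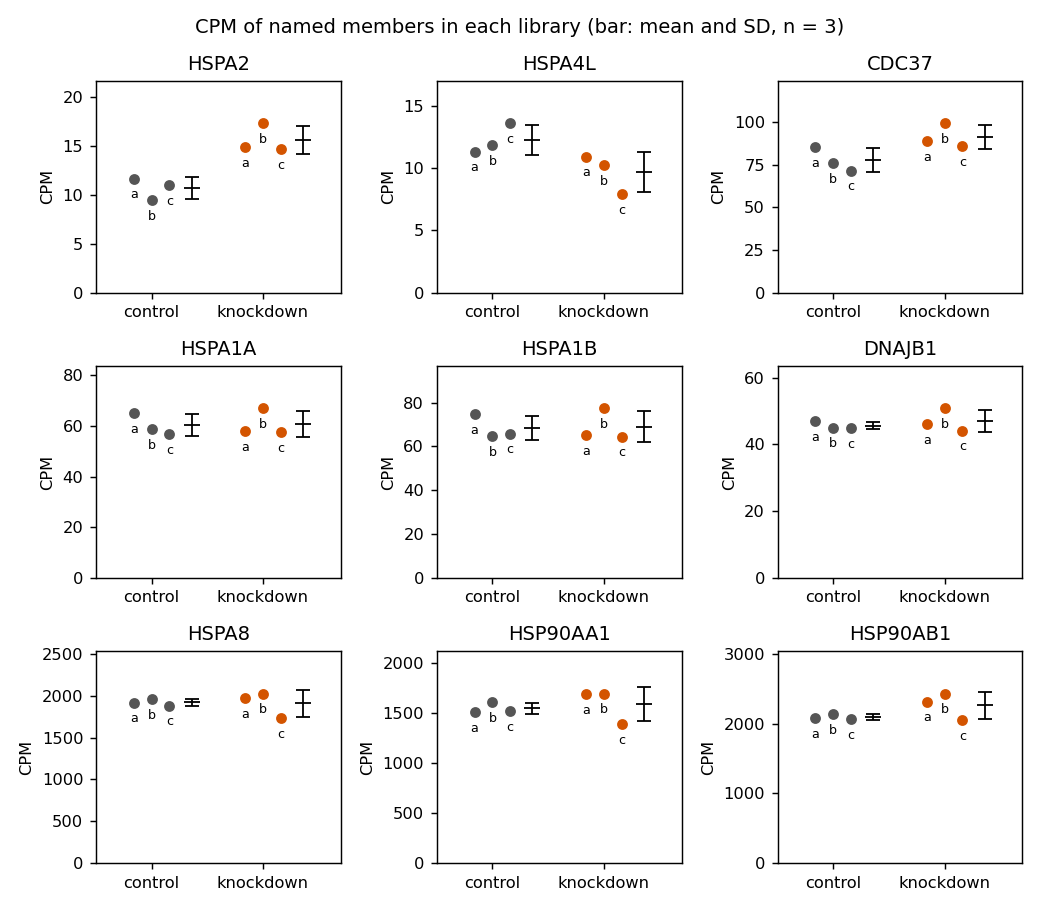
Level in CPM (vertical axis from 0) of 9 members in each library, with letters for the libraries and a bar for mean and SD (n = 3) to the right of each group. HSPA2 is separated between groups, HSPA4L and CDC37 are narrowly so, and the 6 stress or abundant members below overlap, with knockdown c low for HSPA8, HSP90AA1 and HSP90AB1.

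The log2 ratio of HSPA1A plus HSPA1B to HSPA8 sets the inducible against the constitutive HSP70 within a library, and needs no scaling between libraries. It was -4.00, -3.81 and -3.82 in the knockdown and -3.78, -3.99 and -3.94 in the control. The ranges coincided almost completely. The means were -3.88 ± 0.10 and -3.91 ± 0.11 (SD, n = 3), a difference of 0.026 (exact permutation test, two-sided p = 1, adjusted over 2 ratios p = 1; the smallest p this design allows is 0.1).

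The cytosolic HSP90 forms HSP90AB1 and HSP90AA1 were, with HSPA8, the most abundant members per kilobase of transcript. HSP90AB1, the constitutive cytosolic form, stood at 2319.5, 2434 and 2055 CPM in the knockdown and at 2086, 2144 and 2070.5 CPM in the control. Knockdown a and b were above every control and knockdown c below them. Its log2 fold change was 0.11 ± 0.074 (SE; by edgeR, adjusted p = 0.534). HSP90AA1, the inducible form, stood at 1682, 1689.5 and 1385 CPM in the knockdown and at 1507, 1605 and 1512 CPM in the control. It showed the same placing of the libraries, with a log2 fold change of 0.041 ± 0.083 (SE; by edgeR, adjusted p = 0.869). The log2 ratio of HSP90AA1 to HSP90AB1 was -0.46, -0.53 and -0.57 in the knockdown and -0.47, -0.42 and -0.45 in the control. Knockdown a fell within the control range and the other knockdown libraries below it. The means were -0.52 ± 0.053 and -0.45 ± 0.026 (SD, n = 3), a difference of -0.073 (exact permutation test, two-sided p = 0.2, adjusted p = 0.4). TRAP1, the mitochondrial HSP90, was at 50.7 ± 4.41 and 48.5 ± 2.138 CPM (SD, n = 3).

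Of the HSP90 co-chaperones, all 3 were above 0, with a median log2 fold change of 0.14. CDC37, which brings kinases to HSP90, stood at 89.0, 99.2 and 85.7 CPM in the knockdown and at 85.5, 76.0 and 71.6 CPM in the control. The groups did not overlap, but control a came within a narrow margin of knockdown c. The log2 fold change was 0.23 ± 0.082 (SE), which did not pass after adjustment (edgeR adjusted p = 0.226). STIP1, the adaptor that links HSP70 to HSP90, had a log2 fold change of 0.14 ± 0.074 (SE), and AHSA1, which stimulates the HSP90 ATPase, one of 0.082 ± 0.079 (SE).

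All 3 members with an HSPB symbol were below 0, with a median log2 fold change of -0.069. HSPB11, a ciliary protein placed in neither stress class, is counted among them at -0.045. HSPB8, the partner of BAG3, stood at 4.83, 4.37 and 4.08 CPM in the knockdown and at 5.49, 5.70 and 4.79 CPM in the control. Only knockdown a reached into the control range. The log2 fold change was -0.26 ± 0.15 (SE; by edgeR, adjusted p = 0.452). HSPB1, an inducible holdase, was at 31.8 ± 3.18 and 33.5 ± 6.86 CPM (SD, n = 3), with control a the highest library at 40.7 CPM.

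Of the 8 J proteins, 6 were above 0, and the median log2 fold change was 0.044. DNAJC2, a ribosome-bound partner of HSP70 for new chains, stood at 16.04, 15.0 and 13.0 CPM in the knockdown and at 15.3, 17.2 and 16.8 CPM in the control. Knockdown a lay within the control range and the other knockdown libraries below it, with a log2 fold change of -0.16 ± 0.10 (SE; by edgeR, adjusted p = 0.506). DNAJB6, which keeps aggregation-prone proteins soluble, stood at 238, 255.99 and 248.7 CPM in the knockdown and at 256.25, 262 and 274 CPM in the control. Its groups touched without overlapping, and the log2 fold change was -0.096 ± 0.064 (SE; by edgeR, adjusted p = 0.535). DNAJB4 had only 7 to 33 counts in a library, and its wide interval from -0.62 to 1.64 leaves the direction and size of any change undetermined. The remaining 5 members, among them the inducible DNAJA1, lay at log2 fold changes between 0.024 and 0.047. Of the other BAG proteins, BAG1 and BAG2 had log2 fold changes of -0.0055 and -0.060.

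HSPD1, the mitochondrial chaperonin that folds matrix proteins, stood at 801, 789 and 656 CPM in the knockdown and at 682, 739.8 and 711 CPM in the control. Knockdown a and b were above every control and knockdown c below, with a log2 fold change of 0.075 ± 0.083 (SE; by edgeR, adjusted p = 0.732). Its lid partner HSPE1 was listed at 0 in all 6 libraries. HSPE1 is a gene that every cell uses, so the listed 0 gives no level, and no ratio of HSPD1 to HSPE1 was formed. In GENCODE 29, 14.2% of HSPE1's exon bases overlap HSPD1 on the other strand, and 9.71% overlap annotation on the same strand. Whether either overlap bears on the listed 0 was not tested.

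TRiC is built from 8 different subunits in each ring, and 7 of the 8 were above 0, with a median log2 fold change of 0.088 and TCP1 the exception at -0.047. edgeR, DESeq2 and limma-voom each called 0 of them, and 0 passed an unadjusted p under 0.05 in edgeR. CCT7 stood at 314, 337 and 265.5 CPM in the knockdown and at 279, 275 and 273 CPM in the control. Knockdown a and b were above the narrow control range and knockdown c below it. The log2 fold change was 0.15 ± 0.083 (SE; by edgeR, adjusted p = 0.444). Without knockdown c it was 0.22 (edgeR adjusted p = 0.0258), the only one of 15 alternatives in which a member other than HSPA2 passed; 6.4% of all genes then passed. Without that library the TRiC median was 0.14, and without knockdown b it was 0.034.

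Levels of different subunits were compared per kilobase of the principal transcript. CCT4 stood at 12.7 to 17.8 CPM per kilobase over the 6 libraries. The other 7 subunits stood between 85.1 and 177 CPM per kilobase. CCT4 was thus listed far below the subunits with which it shares the ring in both groups, a description of the table and not of the protein. Of CCT4's merged exon bases, 12.6% overlap genes on the opposite strand. For CCT5, at 85.1 to 101.2 CPM per kilobase, that share was 30.1%. Whether such overlap affected the listed levels was not tested. Prefoldin, which hands actin and tubulin to TRiC, had both members below 0. PFDN2 stood at 23.4, 24.2 and 21.7 CPM in the knockdown and at 23.8, 25.7 and 23.9 CPM in the control, overlapping, with a log2 fold change of -0.080 ± 0.079 (SE; by edgeR, adjusted p = 0.691). PFDN4 had a log2 fold change of -0.099 ± 0.10 (SE).

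**Figure D3:**
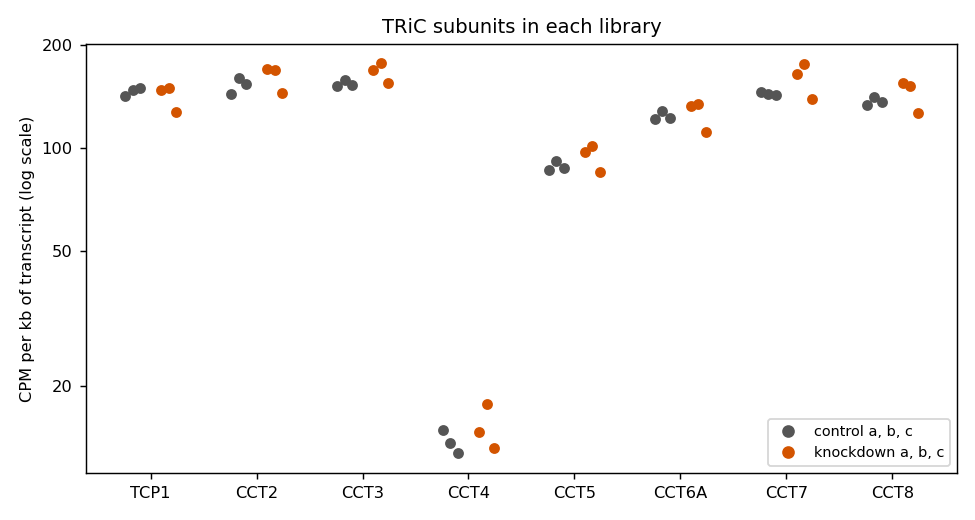
CPM per kilobase of transcript (vertical axis, log scale) of the 8 TRiC subunits, with grey points for control a, b and c and orange points for knockdown a, b and c from left to right. CCT4 lies at 12.7 to 17.8 and the other subunits at 85.1 to 177, and knockdown c is the lowest knockdown library of every subunit.

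Knockdown b was the highest of the 6 libraries for 25 of 44 members (56.8%), against 24.2% of all tested genes and 39.9% of the 2605 genes at 100 CPM or more. Knockdown c was the lowest for 26 of 44 members (59.1%), against 16.5% and 23.5%. Of the 19 members at 100 CPM or more, knockdown b was highest for 13 and knockdown c lowest for 15. The members' median deviation from their own mean over the libraries (log2 of CPM + 0.5) was 0.047, 0.12 and -0.10 in the knockdown libraries a, b and c, against -0.048, 0.0076 and -0.042 in the control libraries. The members took 1.265%, 1.255% and 1.084% of all counts in the knockdown and 1.115%, 1.161% and 1.126% in the control. Constitutive members deviated by 0.072, 0.105 and -0.115 in the knockdown and inducible members by -0.032, 0.13 and -0.097, so both classes were high in knockdown b and low in knockdown c. Without knockdown b the median log2 fold change of the members was 0.00092, that of the inducible members -0.018 and that of the constitutive members 0.0030. Without knockdown c these were 0.086, 0.077 and 0.086, and 15 of 44 members reached an unadjusted p under 0.05, against 19.3% of all genes tested without that library. What sets these 2 libraries apart was not tested.

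**Figure D4:**
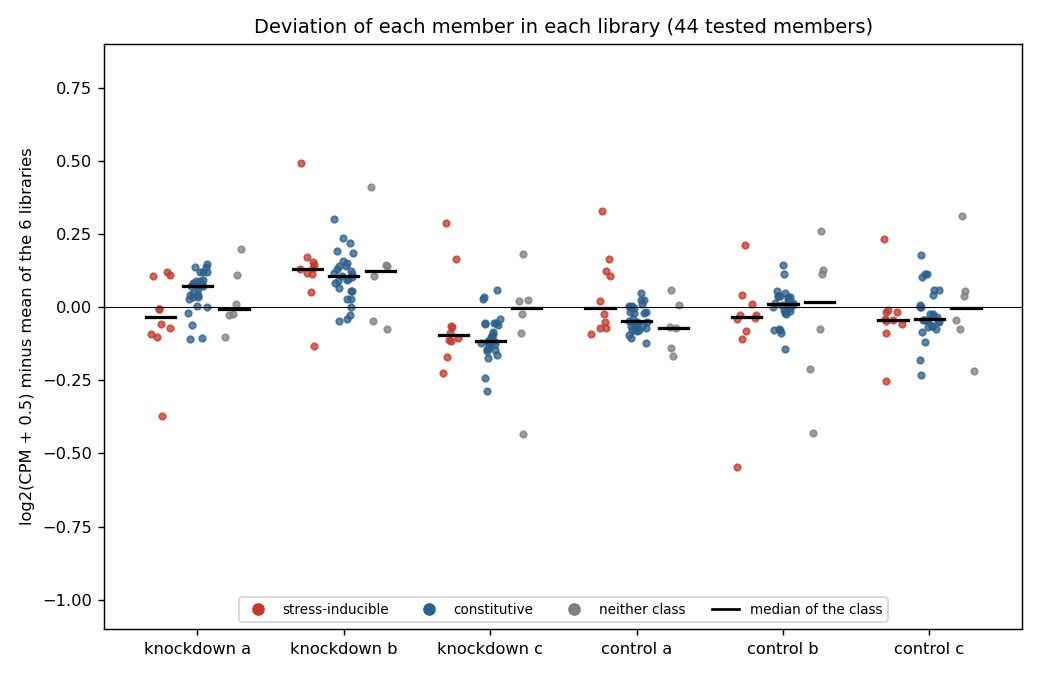
Deviation of each of the 44 tested members in each library from its mean over the 6 libraries (vertical axis, log2 of CPM + 0.5), coloured by stress class, with a bar at the class median. The inducible and constitutive medians are both above 0 in knockdown b and both below 0 in knockdown c.

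Genes of the same pathways outside the members were counted in the same edgeR fit, in lists chosen with earlier results of these data known. edgeR called 0 genes of these lists, DESeq2 called 5 and limma-voom called 0. Over all genes with an adjusted p, DESeq2 called 3.9% and limma-voom 0.882%. The 17 endoplasmic reticulum (ER) chaperones, which fold secreted and membrane proteins, had a median log2 fold change of 0.19, with 16 above 0. Among them 9 (52.9%) had an unadjusted p under 0.05 in edgeR, against 14.3% of all genes, and 9 did not overlap between groups, against 18.9%. Of the 9 without overlap, 1 gene, DNAJB9, was lower in the knockdown, with a log2 fold change of -0.17 (named after its values were seen). DNAJB9 is not among the 9 with an unadjusted p under 0.05. HYOU1, the ER exchange factor of the HSP110 type, had the smallest p: it stood at 321, 349 and 303 CPM in the knockdown and at 284, 266 and 269.62 CPM in the control. Every knockdown library was above every control, and the log2 fold change was 0.25 ± 0.071 (SE), which did not pass after adjustment (edgeR adjusted p = 0.141). DESeq2 called HYOU1, PDIA4 and SERPINH1 of this list. HSPA5 and HSP90B1, the ER counterparts of HSPA8 and HSP90AB1 and named after their values were seen, had log2 fold changes of 0.23 ± 0.079 and 0.19 ± 0.076 (SE), with edgeR adjusted p of 0.21 and 0.289. The ER median was 0.12 without knockdown b and 0.23 without knockdown c, and without knockdown c edgeR called 7 of the 17, a setting in which it called 6.4% of all genes. By library it was 0.10, 0.18 and -0.042 in the knockdown and -0.052, -0.099 and -0.072 in the control.

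**Figure D5:**
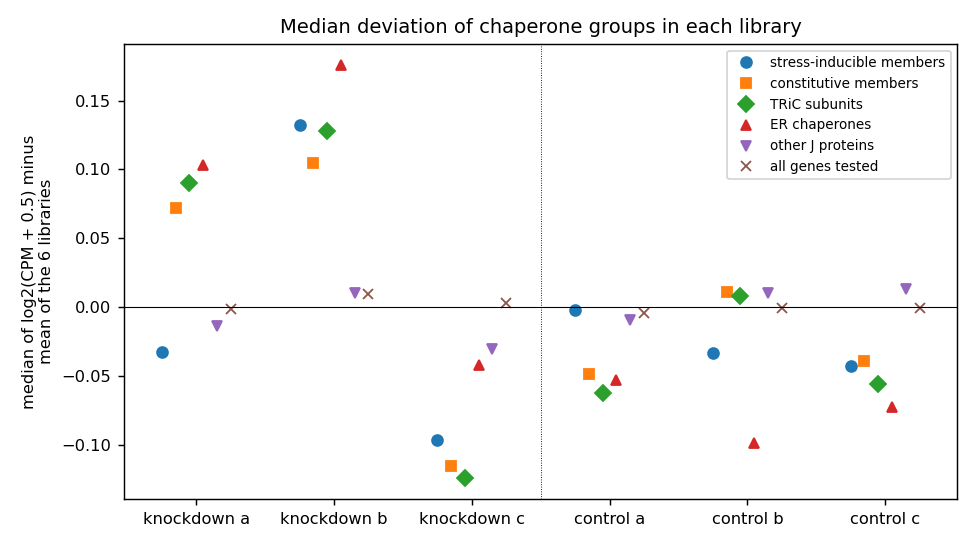
Median deviation (vertical axis, log2 of CPM + 0.5 minus the mean of the 6 libraries) of 5 chaperone groups and of all tested genes, by library. ER chaperones lie above each of their own control medians in all 3 knockdown libraries, while stress-inducible, constitutive and TRiC medians are lowest in knockdown c.

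The other lists had medians nearer to 0 or few tested genes. The HSP family outside the members, which includes the ER forms, had 11 of 19 genes tested, a median log2 fold change of 0.19 and 5 (45.5%) at an unadjusted p under 0.05, again led by HYOU1. The share over all genes was 14.3%. The 31 tested J proteins outside the members had a median of -0.023, with 4 (12.9%) at an unadjusted p under 0.05, near the share of all genes. DNAJC5, the J protein of synaptic and secretory vesicles, led them at 0.22 ± 0.064 (SE; by edgeR, adjusted p = 0.147). The 26 tested co-chaperones of HSP90 and HSP70 had a median of 0.0099, with 4 (15.4%) at an unadjusted p under 0.05, likewise near that share. FKBP8, an anchored immunophilin of mitochondria, led them at 72.8 ± 6.25 CPM in the knockdown and 59.7 ± 2.49 CPM in the control (SD, n = 3; log2 fold change 0.29 ± 0.075 SE, edgeR adjusted p = 0.109), and DESeq2 called it. The 17 partners of prefoldin and TRiC had a median of 0.030, with 1 (5.88%) at an unadjusted p under 0.05, the tubulin cofactor TBCC (edgeR adjusted p = 0.299). The 13 genes of mitochondrial protein quality control had a median of 0.054 and 0 at an unadjusted p under 0.05, with the smallest p at the processing peptidase subunit PMPCA (edgeR adjusted p = 0.351).

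Genes commonly induced by heat outside the members, a list likewise chosen with earlier results known, included 23 tested of 25. Their median log2 fold change was 0.039, with 12 above 0, 11 below and 7 (30.4%) at an unadjusted p under 0.05, against 14.3% of all genes. The list ran from -0.34 to 0.26. Those 7 lay on both sides of 0, with PPP1R15A below and FKBP4, named after its values were seen, above at 0.24 ± 0.087 (SE; by edgeR, adjusted p = 0.243). PPP1R15A, which restores translation after stress by directing a phosphatase to eIF2α, had the smallest p. It stood at 24.2, 24.4 and 21.5 CPM in the knockdown and at 31.45, 28.6 and 28.7 CPM in the control. Every knockdown library was below every control, and the log2 fold change was -0.34 ± 0.080 (SE), which did not pass after adjustment (edgeR adjusted p = 0.083). It was called by DESeq2 and by edgeR without the filter on low counts (3.29% of all genes called). With the gene span trend removed (1.47%) or the replicate letter as a block (1.99%), edgeR also called PPP1R15A. Of this list DESeq2 also called SERPINH1, whose log2 fold change was above 0, unlike that of PPP1R15A.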

How the data were processed

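The values are unscaled counts of reads for each gene symbol, as deposited by the authors, in 6 RNA-seq libraries, 3 per group. Libraries were made with a directional kit, per the labels' protocols. Trimmomatic 0.39, STAR 2.7.8a, featureCounts, Subread 2.14.2 and the build hg38 are named, with no order, per the submitters' processing notes. The annotation, strand setting, and treatment of multiply aligned or overlapping reads are not given in the sources used here, which matters for the near-identical HSP70 copies and for HSPE1, listed at 0.

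Counts were fitted with edgeR 4.0.16 (R 4.3.3; filterByExpr, TMM, quasi-likelihood test, group only), with Benjamini-Hochberg adjustment over 19721 genes and a threshold of 0.05. CPM used TMM-scaled library sizes. Depth was 25087629 to 36576752 counts. The common biological coefficient of variation was 0.103. Ratios were tested by exact permutation over libraries and adjusted over the 2 that could be formed. The edgeR script was tested on simulated data.

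The members and lists were chosen with earlier results of these data known. Values per library are printed for members with an unadjusted p under 0.05, for the smallest p in each role and for stress and abundance anchors. Each list outside the members gives the gene with the smallest p. Alternatives were DESeq2 1.42.0 (Wald test, or its size factors), limma-voom (limma 3.58.1), upper-quartile scaling, library size alone, no filter, a mean count of at least 50, the replicate letter as a block, a broader inducible class, each library left out and, added after seeing the data, removal of a gene span trend (spline with 5 degrees of freedom, 16033 genes). Promoters came from RefSeq (GRCh38.p14) and gene models from GENCODE 29. A comparison of protein sequences was not analysed here.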

Additional observations from a re-analysis of the deposited data

How the results depend on the processing

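The changed genes over the whole table numbered 155, against 530 with DESeq2, 1064 without the filter on low counts and 235 with the gene span trend removed, and from 26 (without control a) to 1309 (without knockdown c) when 1 library was left out. The number of members called, all of them higher, was 1 under every other scaling, filter and test, and ranged from 0 to 2 when 1 library was left out. It was 2 without knockdown c (HSPA2 and CCT7) and 0 without any other single library. Pathway genes outside the members called by edgeR numbered 0, against 5 with DESeq2, 4 without the filter, 1 with the span trend removed, and from 0 to 9 when 1 library was left out, the 9 being without knockdown c. The causes were not tested.

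With the replicate letter as a block, 393 genes, 1 member (HSPA2, adjusted p = 0.0308) and 1 pathway gene outside the members (PPP1R15A) were called. After each group's own mean was subtracted from every gene, the correlations of same-lettered libraries were -0.011, 0.14 and -0.010 for a, b and c. Libraries of different letters were not compared in this way, so whether the letters pair the libraries was not tested. The ratios had a sign-flip p of 0.5 and 1 under the block.

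Signs near 0 turned. With the span trend removed, the log2 fold change was -0.050 for HSPA1A, -0.054 for HSPA1B and -0.0094 for DNAJB1. HSPA8 was at 0.017 with library size alone and 0.0073 with upper-quartile scaling. Leaving out 1 library gave a range from -0.062 to 0.084 for HSPA1A, -0.083 to 0.088 for HSPA1B, -0.023 to 0.071 for DNAJB1, -0.063 to 0.036 for HSPA8, -0.014 to 0.11 for HSP90AA1 and -0.018 to 0.088 for the ratio of HSPA1A plus HSPA1B to HSPA8. None of these passed the test. Counts of 7 to 33 leave DNAJB4 undetermined, and 3 libraries per group limit every exact test to p of 0.1 or more.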
